A study of Mus musculus with 15 samples.

Results

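The 49 genes described here encode the enzymes that cut the extracellular matrix and the proteins that hold them in check. They comprise 22 matrix metalloproteinases (Mmp genes), 18 ADAMTS proteases (Adamts genes), 5 ADAMTS-like glycoproteins (Adamtsl genes) and 4 tissue inhibitors of metalloproteinases (Timp genes). Membership was set by gene symbol alone among 22180 measured genes, with the brightest probe set naming no other gene taken for each. RefSeq lists 51 symbols of this form, and the remaining ones, Adamts2 and Mmp15, were not analysed here.

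The RNA came from whole aortic segments of DBA/2NCrl mice, an inbred strain, which were 8 weeks old when the experiment began. The groups were thoracic aorta after a high-phosphate diet (thoracic HPD, 3 arrays), thoracic aorta after standard chow (thoracic SCD, 4 arrays), abdominal aorta after the high-phosphate diet (abdominal HPD, 4 arrays) and abdominal aorta after chow (abdominal SCD, 4 arrays). The high-phosphate feed held 20.2 g phosphorus per kg, chow held 7.0 g per kg, and feeding lasted 5 days. The labels call the arrays of a group biological replicates, and do not say whether a thoracic and an abdominal array share a mouse or whether mice were pooled. Values below are log2 intensities of 1 probe set per gene. Means are given with their SD, and differences, on the log2 scale, with their SE. The number of arrays limits the precision. A difference was called where limma, a linear model fitted to all 22180 genes at once, gave a Benjamini-Hochberg adjusted p under 0.05. Intensities of different genes come from different probes and cannot be ranked against each other. Detection calls were not used here. Of the 49 genes 8 had a mean below 5.24, the 30th percentile of all genes, namely Adamts3, Adamts13, Adamts18, Adamts19, Mmp1a, Mmp1b, Mmp13 and Mmp20.

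Matrix metalloproteinases are zinc-dependent enzymes made as inactive precursors, and between them they cleave collagens, basement membrane proteins and many secreted factors. ADAMTS proteases carry thrombospondin repeats that anchor them in the matrix, and one branch of them cuts large proteoglycans such as aggrecan and versican. ADAMTS-like proteins keep the anchoring repeats without the protease domain, and TIMPs plug the active sites of the enzymes. In the aorta this system governs the turnover of collagen and elastic fibres, and it has been studied in aneurysm and in medial calcification.

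The arrays carried the markers of a vessel wall together with those of tissue around it. Myh11, smooth muscle myosin, lay between 11.28 and 11.49 in thoracic and between 10.35 and 11.13 in abdominal arrays, and Cdh5, an endothelial cadherin, between 9.38 and 10.08 in all 15. The mean of 9 brown adipocyte genes was 7.91 in thoracic HPD against 8.90 in thoracic SCD arrays, and 7.11 in abdominal HPD against 8.64 in abdominal SCD arrays. Averaged over 9 T and NK lymphocyte markers, the level was 8.51, 8.50, 6.22 and 8.07 in abdominal HPD and 5.67, 7.59, 6.10 and 8.20 in abdominal SCD arrays 1 to 4, and at most 5.87 in thoracic arrays. Hepatocyte genes stood apart in abdominal HPD arrays 3 and 4, with a mean of 8.40 and 10.46, and no other array passed 6.60. The mean of 9 chromaffin and sympathetic genes was 7.46 to 8.71 in abdominal and 5.46 to 6.47 in thoracic arrays, and that of 9 cardiac muscle genes was 8.04 to 8.93 in thoracic and 6.02 to 6.25 in abdominal arrays. In such bulk RNA, fewer cells of a type and less RNA per cell cannot be told apart.

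The abdominal comparison asks what the phosphate-rich diet did to these genes in that segment. In all 7 genes fell, 4 of 18 ADAMTS proteases (Adamts5, Adamts9, Adamts12 and Adamts16), 2 of 5 ADAMTS-like genes (Adamtsl3 and Adamtsl5) and 1 of 22 metalloproteinases (Mmp19). Mmp27 rose, and none of the 4 TIMPs passed the test. The 8 calls among 49 genes are 16.3%, beside 7.01% of all genes tested (1.95% called higher and 5.06% called lower). The median difference was -0.0025 over the 49 genes and -0.0080 over all genes. In a fit of the abdominal arrays alone 4 of the 49 genes were called, beside 1026 of all genes. Adamts5, Adamtsl3, Adamtsl5 and Mmp27 were not among them (limma adjusted p of 0.0573 to 0.115). Without abdominal SCD array 1 the count was 5, beside 891 of all genes.

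Adamts9, a secreted protease that cuts versican (probe set 17469136), showed the largest fall. It read 7.15, 6.92, 7.07 and 7.11 in abdominal HPD arrays 1 to 4, against 8.40, 8.26, 7.41 and 7.79 in abdominal SCD arrays. The HPD arrays lay close together below every chow array, while chow arrays spanned about a log2 unit. The group means were 7.06 ± 0.10 and 7.96 ± 0.46 (n = 4 each), a difference of -0.90 ± 0.207 or 1.87-fold lower (limma adjusted p = 0.0146). Without abdominal SCD array 1 the difference was -0.75 and the call ended (adjusted p = 0.0599).

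Adamts12, a protease that degrades cartilage oligomeric matrix protein (probe set 17310368), had the smallest p of the family. It read 7.01, 6.90, 7.06 and 6.73 in abdominal HPD arrays and 7.47, 7.55, 7.60 and 7.41 in abdominal SCD arrays. The groups were separated by 0.345 at their nearest arrays. The means were 6.93 ± 0.15 and 7.51 ± 0.09 (n = 4 each), a difference of -0.58 ± 0.0851 (limma adjusted p = 0.000628), and the call held with each array left out in turn.

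Adamts5, the main aggrecan-cleaving enzyme of mouse cartilage (probe set 17331720), read 8.34, 8.26, 8.78 and 8.14 in abdominal HPD arrays, against 9.08, 8.81, 9.15 and 8.80 in abdominal SCD arrays. HPD arrays 1, 2 and 4 lay well below chow, and array 3, the HPD array with the lowest lymphocyte and the highest smooth muscle marker mean (6.22 and 8.67), came within 0.0165 of the lowest chow array. The difference was -0.58 ± 0.129 (limma adjusted p = 0.0122).

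Adamts16 (probe set 17294187) averaged 5.28 ± 0.08 in abdominal HPD and 5.73 ± 0.20 in abdominal SCD arrays (n = 4 each), a difference of -0.45 ± 0.10 (limma adjusted p = 0.0119). Every HPD array, from 5.20 to 5.39, was below every chow array, from 5.54 to 5.95. Mmp19, a secreted enzyme that cuts basement membrane proteins (probe set 17238558), read 6.28, 6.32, 6.55 and 6.55 in abdominal HPD arrays, against 7.23, 6.93, 6.93 and 6.90 in abdominal SCD arrays. The groups did not overlap, and the difference was -0.57 ± 0.101 (limma adjusted p = 0.00266). The calls of Adamts16 and Mmp19 held with each array left out in turn.

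Of the ADAMTS-like genes, Adamtsl3, also called punctin-2 (probe set 17479769), averaged 6.38 ± 0.20 in abdominal HPD and 6.81 ± 0.20 in abdominal SCD arrays (n = 4 each). Its groups overlapped through HPD array 3 at 6.67, and the difference was -0.43 ± 0.109 (limma adjusted p = 0.0247). Adamtsl5, which binds fibrillin (probe set 17242879), averaged 5.87 ± 0.14 in abdominal HPD and 6.19 ± 0.12 in abdominal SCD arrays (n = 4 each), a difference of -0.32 ± 0.085 (limma adjusted p = 0.0355). Each of these 2 calls ended in 5 of the 15 fits that left out 1 array. Adamtsl1, Adamtsl2 and Adamtsl4 gave differences of -0.20, -0.012 and -0.0014 and were not called.

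Mmp27, a little-studied relative of the stromelysins (probe set 17514566), was the gene that rose. It read 6.26, 6.57, 6.64 and 6.69 in abdominal HPD arrays and 6.23, 6.23, 5.77 and 5.42 in abdominal SCD arrays. HPD array 1 lay only 0.0337 above chow arrays 1 and 2, so the separation rested on the other arrays. The difference was 0.63 ± 0.163, 1.55-fold (limma adjusted p = 0.0284), and the call ended without HPD array 2 or 4 or chow array 3 or 4 (adjusted p up to 0.0864).

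**Figure D1:**
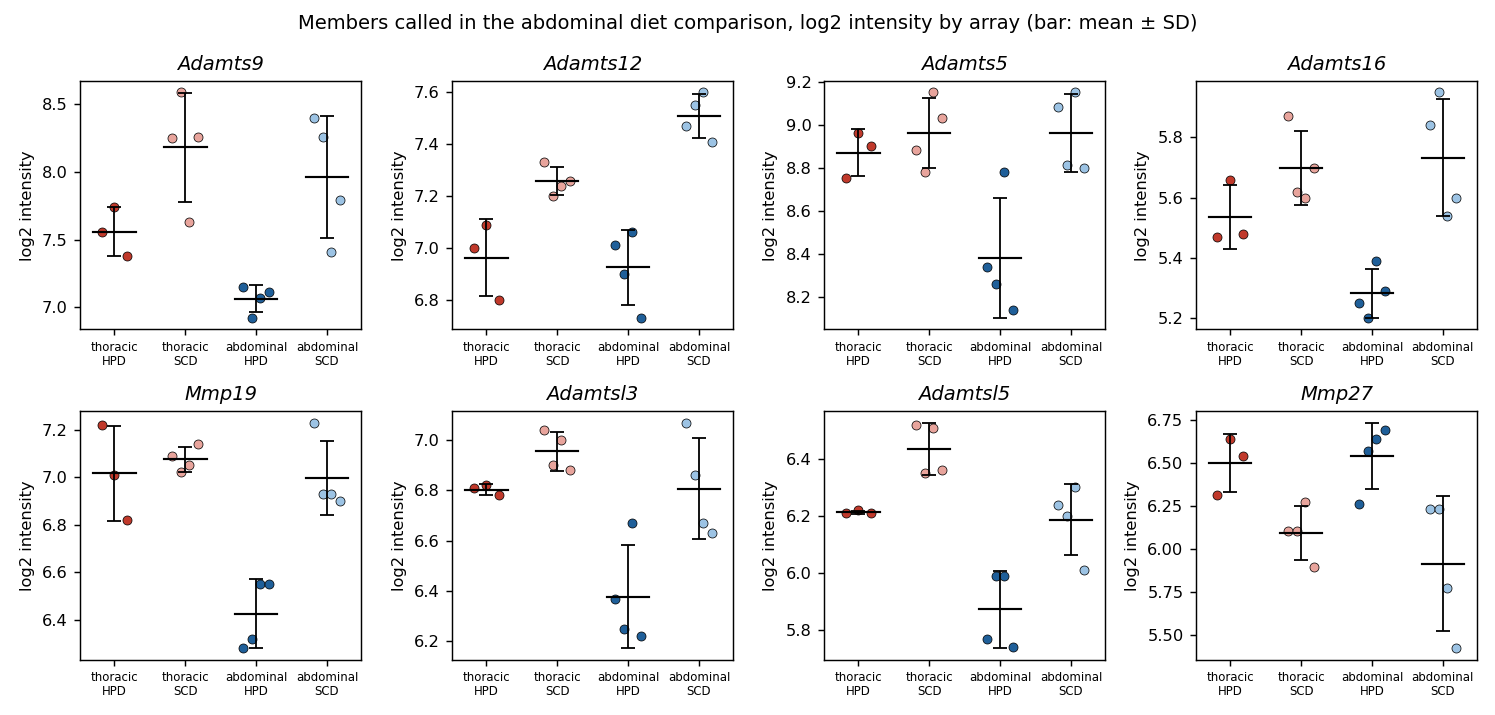
Log2 intensity of the 8 genes called in the abdominal diet comparison, 1 point per array in thoracic HPD, thoracic SCD, abdominal HPD and abdominal SCD groups, with a line for the mean and a bar for the SD. Adamts9 lies between 6.92 and 7.15 in abdominal HPD arrays and between 7.41 and 8.40 in abdominal SCD arrays, and Mmp27 is the panel in which HPD arrays lie above chow.

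Other tissue moved with these abdominal values. Of 9 brown adipocyte markers 8 fell, of 11 pan-adipocyte markers 5 fell, and of 11 adventitial fibroblast markers 5 fell and 1 rose, with a fibroblast mean of 8.01 to 8.18 in abdominal HPD and 8.36 to 8.67 in abdominal SCD arrays. Of 12 macrophage markers 3 rose, with a mean of 7.63 to 7.91 in abdominal HPD and 7.23 to 7.57 in abdominal SCD arrays and no overlap. Of 10 mast cell markers 3 fell, and of 12 endothelial markers 3 fell and 1 rose. T and NK cell markers were high in 3 HPD and 2 chow arrays. Their part in the changes of the protease genes was not tested. A fit without those 5 arrays, an alternative chosen after seeing the data, keeps abdominal HPD array 3 alone of its group. That array had a hepatocyte marker mean of 8.40 and the highest smooth muscle marker mean of its group (8.67). The differences in this fit were -0.84 for Adamts9, 0.64 for Mmp27, -0.53 for Mmp19 and -0.47 for Adamts12. For Adamts5, Adamts16, Adamtsl5 and Adamtsl3 they were -0.33, -0.30, -0.28 and -0.20. Without HPD arrays 3 and 4, those with hepatocyte markers, 6 of the 49 genes were called, all lower, beside 1732 of all genes. In that fit Adamts9 gave -0.93 (limma adjusted p = 0.05002) and Mmp27 0.51 (limma adjusted p = 0.154).

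In the thoracic aorta, set against chow in the same way, Timp4 rose and was the only one of the 49 genes called, 2.04% beside 2.47% of all genes tested (1.39% called higher and 1.08% called lower). Timp4 is the TIMP found mainly in heart, fat and vessels (probe set 17469879). It read 9.02, 9.0 and 9.14 in thoracic HPD arrays, against 8.35, 8.41, 7.90 and 8.49 in thoracic SCD arrays. The HPD arrays were tight and lay 0.511 above the highest chow array. The difference was 0.77 ± 0.182, 1.70-fold higher (limma adjusted p = 0.0377, n = 3 and 4). The call ended when any of the 7 thoracic arrays was left out, with a difference of 0.64 to 0.84 and an adjusted p up to 0.132.

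Timp1, an inducible secreted inhibitor (probe set 17533713), gave a thoracic difference of similar size that did not pass. It read 6.15, 6.77 and 6.61 in thoracic HPD arrays and 5.59, 5.51, 6.38 and 5.23 in thoracic SCD arrays. Chow array 3 lay within the HPD range, and the difference was 0.84 ± 0.233 (limma adjusted p = 0.0762). Mmp27 read 6.31, 6.64 and 6.54 in thoracic HPD arrays and 6.10, 6.10, 6.27 and 5.89 in thoracic SCD arrays, a difference of 0.41 ± 0.176 that was not called (limma adjusted p = 0.311). The 7 genes that fell in the abdominal segment had thoracic differences from -0.62 (Adamts9, limma adjusted p = 0.190) and -0.30 (Adamts12, limma adjusted p = 0.114) to -0.056 (Mmp19), none of them called. Adamts9 was 7.56, 7.74 and 7.38 in thoracic HPD and 8.25, 8.59, 7.63 and 8.26 in thoracic SCD arrays, with chow array 3 inside the HPD range. In the thoracic segment 5 of 9 brown adipocyte and 2 of 11 pan-adipocyte markers fell. Among 9 cardiac, 11 smooth muscle and 11 adventitial fibroblast markers 1 each rose, and of 12 endothelial markers 1 rose and 2 fell. The cardiac marker mean was 8.41 to 8.93 in thoracic HPD and 8.04 to 8.70 in thoracic SCD arrays, which overlap. Of 12 macrophage markers 1 rose, and their mean was 7.62 to 8.16 in thoracic HPD against 7.35 to 7.47 in thoracic SCD arrays, with no overlap. The part of these tissues in the rise of Timp4 was not tested.

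**Figure D2:**
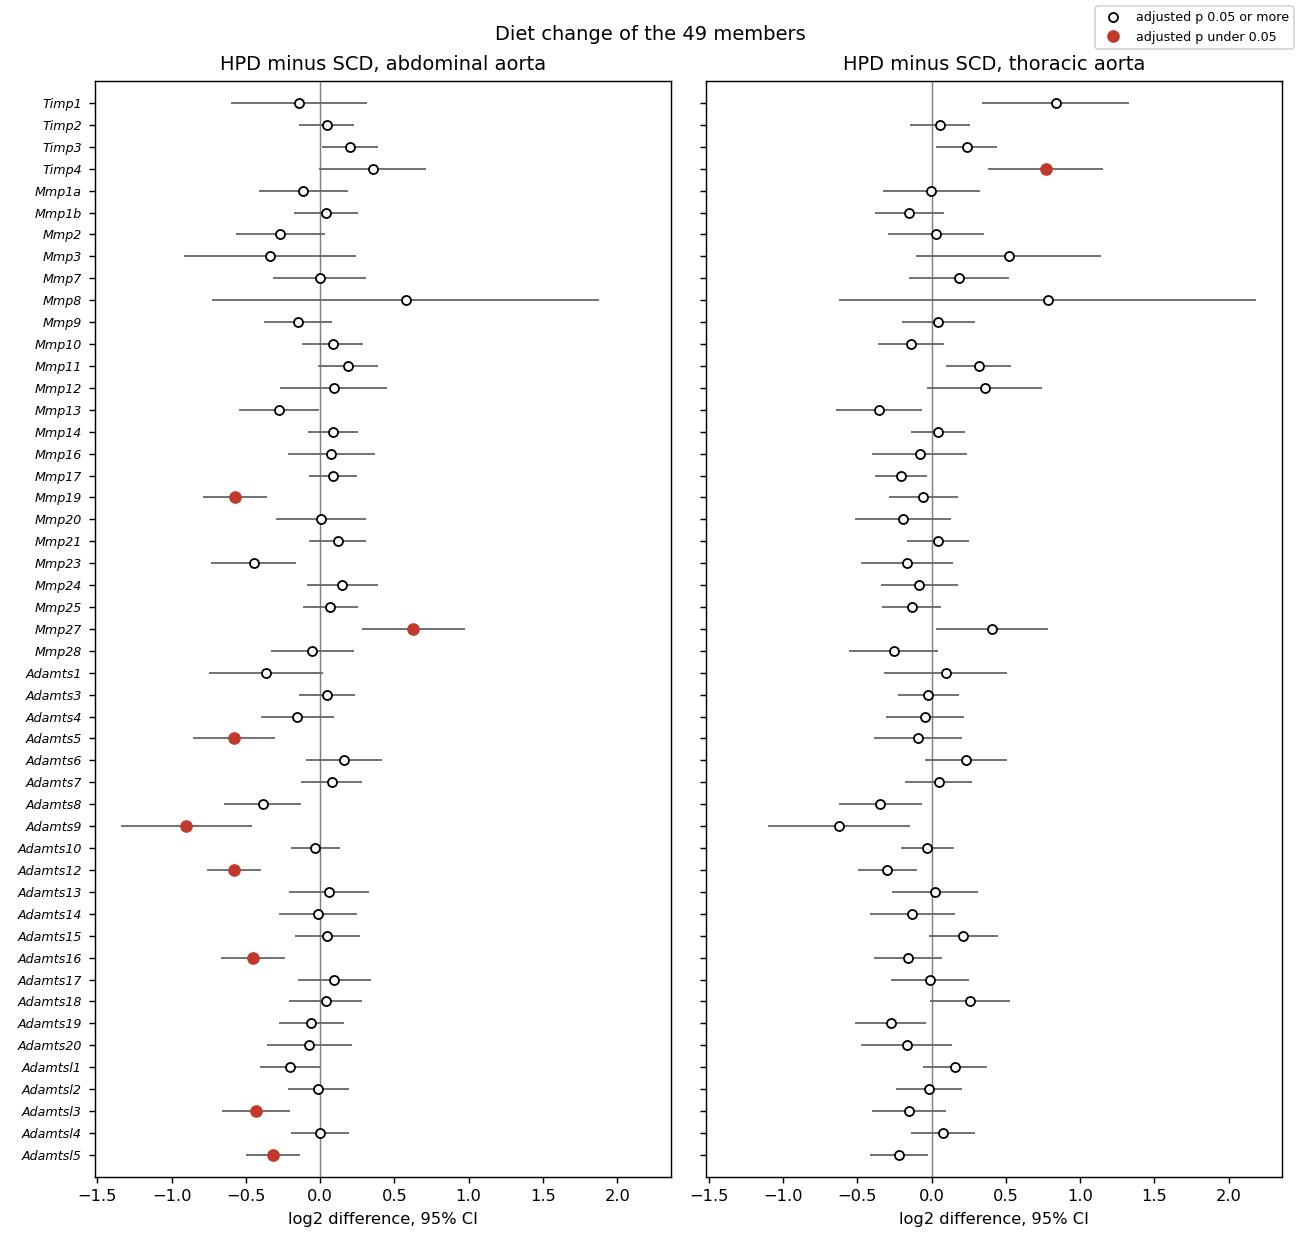
Log2 difference, HPD minus SCD, of all 49 genes in abdominal (left) and thoracic (right) aorta, points with 95% confidence intervals, filled where the adjusted p was under 0.05. There are 8 filled points on the left, from Adamts9 at -0.90 to Mmp27 at 0.63, and Timp4 alone is filled on the right at 0.77.

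Averaged over both segments, the diet change was called for 13 of the 49 genes, 26.5% beside 10.7% of all genes tested (4.53% called higher and 6.18% called lower). Those that rose were the 4 genes Timp4, Timp3, Mmp27 and Mmp11, and 9 fell, the 7 genes that fell in the abdominal segment together with Adamts8 and Mmp13. The average uses the same arrays as the comparisons within segments and is no separate evidence. In the average 7 of 12 macrophage markers rose, 8 of 9 brown adipocyte markers fell, and of 11 adventitial fibroblast markers 5 fell and 2 rose, and their part in these changes was not tested. Adamts12 changed by -0.44 ± 0.0626 (limma adjusted p = 0.000297), Adamts9 by -0.76 ± 0.152 (limma adjusted p = 0.0038), Timp4 by 0.56 ± 0.124 (limma adjusted p = 0.00765) and Mmp27 by 0.52 ± 0.12 (limma adjusted p = 0.0102). Without the arrays with high neutrophil markers 4 of the 49 genes were called in the average, beside 1580 of all genes. Without those with high hepatocyte markers 12 of the 49 were called, beside 2506 of all genes. The calls of Adamts12, Adamts9, Timp4 and Mmp27 held in both of these fits. The fit without the arrays with high lymphocyte markers keeps abdominal HPD array 3 alone of its group, so whether calls held there is not given. In that fit the average changes were -0.73 for Adamts9, -0.40 for Adamts8, -0.21 for Adamts5 and -0.18 for Adamtsl3.

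The genes called through the average alone changed by small amounts. Timp3, the matrix-bound TIMP that also inhibits aggrecan-cutting ADAMTS proteases (probe set 17236182), averaged 9.80 ± 0.13 in thoracic HPD (n = 3) against 9.57 ± 0.12 in thoracic SCD (n = 4), and 9.62 ± 0.15 in abdominal HPD against 9.41 ± 0.11 in abdominal SCD arrays (n = 4 each). Its mean change of 0.22 ± 0.0651 (limma adjusted p = 0.0434) lost its call in 11 of 15 fits with 1 array left out. Mmp11, or stromelysin-3 (probe set 17234433), changed by 0.25 ± 0.0693 (limma adjusted p = 0.0283), and its other probe set gave 0.21 ± 0.0926, not called. That call of Mmp11 was lost in 7 of 15 fits with 1 array left out. Mmp13, a collagenase of bone and cartilage (probe set 17514482), changed by -0.32 ± 0.0923 (limma adjusted p = 0.0391), though at a mean intensity of 4.41 that lies at the 15.2nd percentile of all genes, and the call was lost in 9 of 15 such fits (adjusted p up to 0.0972). Among the genes that also fell in the abdominal segment, the average call of Adamts5 was lost in 9 and that of Adamtsl3 in 8 of them. Adamts8 (probe set 17515703) changed by -0.37 ± 0.0891 (limma adjusted p = 0.0137), whereas its other probe set (17525235) gave -0.060 ± 0.109, and the mean of both was not called (-0.21, adjusted p = 0.0889).

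Whether the diet change differed between segments was tested directly as the abdominal minus the thoracic change. None of the 49 genes, and 0% of all genes, passed (limma), although 7 of the 49 and 1217 of all genes had an unadjusted p under 0.05. The smallest p among the 49 belonged to Mmp19, with a difference of -0.51 ± 0.149 (unadjusted p = 0.00361, adjusted p = 0.858). Timp1 followed, with -0.98 ± 0.317 and a 95% confidence interval from -1.65 to -0.30 (adjusted p = 0.879). So the abdominal calls are not shown to be particular to that segment, nor is the rise of Timp4 to the thoracic one.

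The other values of the inhibitors complete their levels in the 4 groups. Timp2, which binds both Mmp2 and its activator Mmp14 (probe set 17272770), averaged 9.43 ± 0.09 in thoracic HPD, 9.37 ± 0.16 in thoracic SCD, 9.39 ± 0.15 in abdominal HPD and 9.35 ± 0.07 in abdominal SCD arrays. The 95% confidence intervals of its diet changes ran from -0.14 to 0.23 in the abdominal and from -0.14 to 0.26 in the thoracic segment. Timp4 read 8.20, 8.21, 8.95 and 8.56 in abdominal HPD arrays against 8.34, 8.30, 7.84 and 8.03 in abdominal SCD arrays. These groups overlapped, and the difference of 0.35 ± 0.168 was not called (limma adjusted p = 0.258). Timp1 read 5.21, 5.13, 5.81 and 5.60 in abdominal HPD arrays against 5.72, 5.45, 5.55 and 5.59 in abdominal SCD arrays, a difference of -0.14 ± 0.215 that was not called (limma adjusted p = 0.784).

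**Figure D3:**
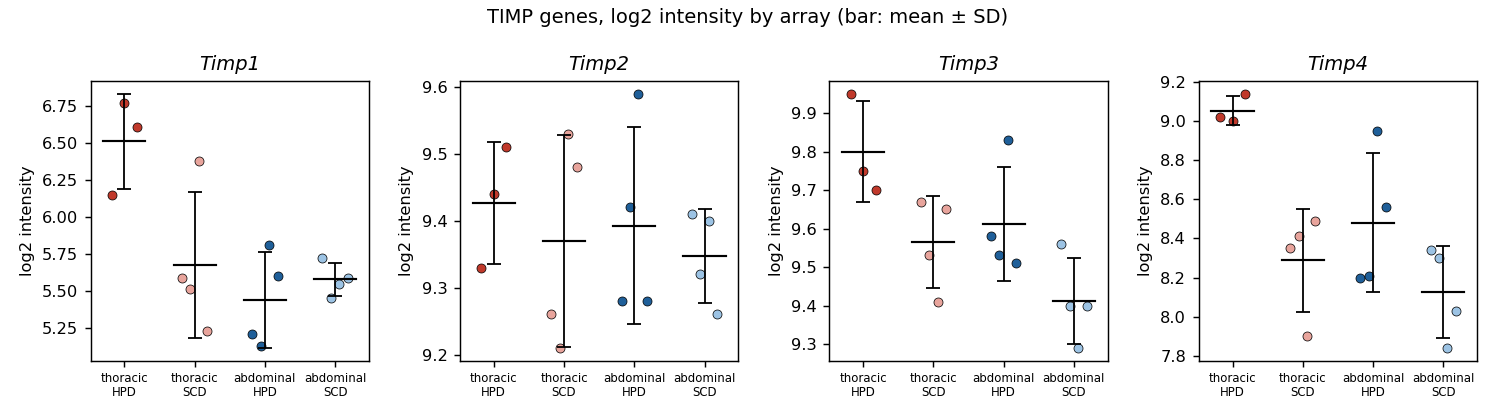
Log2 intensity of the 4 TIMP genes, 1 point per array in thoracic HPD, thoracic SCD, abdominal HPD and abdominal SCD groups, with a line for the mean and a bar for the SD. Timp4 lies between 9.0 and 9.14 in thoracic HPD arrays and at 8.49 or below in thoracic SCD arrays, and Timp1 has its highest mean in thoracic HPD arrays, at 6.15 to 6.77.

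The segments were also compared with each other on each diet. On chow, 3 of the 49 genes were higher in thoracic than in abdominal aorta and none was lower, 6.12% beside 4.78% of all genes called (1.76% higher and 3.02% lower). The count was 1 without abdominal SCD array 4, thoracic SCD array 3 or thoracic SCD array 4. Mmp23, a membrane-anchored metalloproteinase (probe set 17433815), read 8.19, 8.26, 8.75 and 8.40 in thoracic SCD arrays, against 7.92, 7.87, 7.78 and 7.64 in abdominal SCD arrays. The groups did not overlap, and the difference was 0.60 ± 0.134 (limma adjusted p = 0.0176). The call ended without abdominal SCD array 4, thoracic SCD array 3 or thoracic SCD array 4 (adjusted p up to 0.0687). Mmp17, a metalloproteinase held to the membrane by a lipid anchor (probe set 17442887), averaged 6.19 ± 0.08 in thoracic SCD and 5.82 ± 0.11 in abdominal SCD arrays (n = 4 each), with no overlap and a difference of 0.37 ± 0.0758 (limma adjusted p = 0.0114). Adamts8 averaged 5.91 ± 0.20 in thoracic SCD and 5.45 ± 0.18 in abdominal SCD arrays (n = 4 each), a difference of 0.46 ± 0.121 (limma adjusted p = 0.0416) that lost its call in 10 of 15 fits with 1 array left out. Its other probe set (17525235) gave 0.38 ± 0.148 on chow and 0.23 ± 0.16 on high phosphate, neither called (limma adjusted p = 0.171 and 0.366).

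On the high-phosphate diet 10 of the 49 genes differed between segments, 20.4% beside 13.8% of all genes called (7.57% higher and 6.25% lower). Of the 10, 8 were higher in thoracic aorta (Mmp23, Mmp19, Timp1, Timp4, Adamts5, Adamts8, Adamtsl3 and Adamtsl5) and 2 were lower (Adamts20 and Mmp14). Mmp23 read 8.14, 8.16 and 8.41 in thoracic HPD arrays against 7.43, 7.23, 7.66 and 7.10 in abdominal HPD arrays, a difference of 0.88 ± 0.145 (limma adjusted p = 0.00139). Timp1 was 2.11-fold higher in thoracic HPD arrays, by 1.08 ± 0.233 (limma adjusted p = 0.00758), whereas on chow its segment difference was 0.10 ± 0.215 and not called (limma adjusted p = 0.841). Mmp19 was higher by 0.59 ± 0.109 (limma adjusted p = 0.00292) on high phosphate and by 0.077 on chow, where it was not called. The calls of Mmp23, Timp1 and Mmp19 held with each array left out, and the other 7 lost theirs at least 3 times in 15 fits. The count was 3 without thoracic HPD array 1, 5 without thoracic HPD array 2, and 4 without thoracic HPD array 3 or abdominal HPD array 1, 2 or 4.

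Mmp14, the membrane enzyme that activates the precursor of Mmp2 (probe set 17300279), ran the other way. It averaged 7.09 ± 0.17 in thoracic HPD (n = 3) and 7.36 ± 0.05 in abdominal HPD arrays (n = 4), a difference of -0.27 ± 0.085 (limma adjusted p = 0.0491). Adamts20 (probe set 17320737) averaged 4.99 ± 0.09 in thoracic HPD (n = 3) and 5.44 ± 0.07 in abdominal HPD arrays (n = 4), a difference of -0.45 ± 0.144 (limma adjusted p = 0.0488). Each of these 2 calls ended in 13 of 15 fits with 1 array left out. Tissue markers differed widely between the segments. On high phosphate all 11 smooth muscle and all 9 cardiac muscle markers were higher in thoracic aorta, and 8 of 9 chromaffin and 8 of 9 T and NK cell markers were lower. Their part in the segment differences was not tested. The fit without the 5 arrays with high lymphocyte markers keeps abdominal HPD array 3, which carried hepatocyte markers, alone of its group. On high phosphate it gave 0.57 for Mmp23, 0.71 for Timp1, 0.47 for Mmp19 and 0.10 for Timp4. For Adamts5, Adamtsl3 and Adamtsl5 it gave 0.089, 0.14 and 0.23, beside 0.49, 0.43 and 0.34 in a fit of the HPD arrays alone. For Adamts8, Adamts20 and Mmp14 it gave 0.47, -0.56 and -0.32. On chow it gave 0.55 for Mmp23, 0.34 for Mmp17 and 0.37 for Adamts8.

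**Figure D4:**
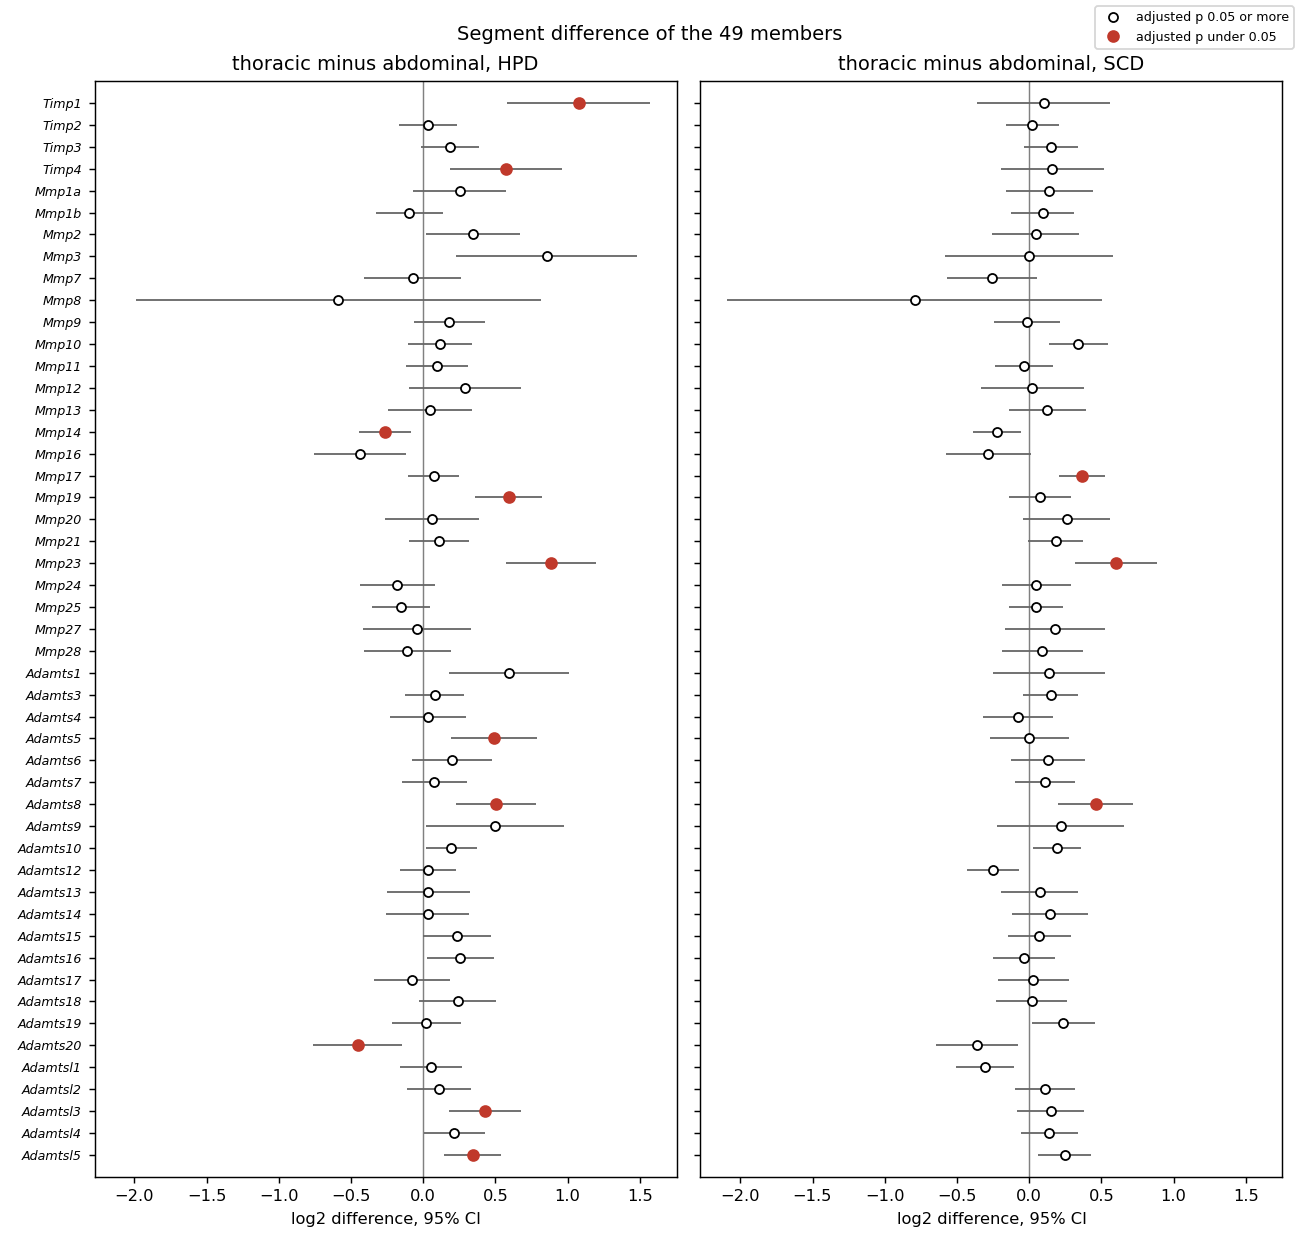
Log2 difference, thoracic minus abdominal, of all 49 genes on the high-phosphate diet (left) and on chow (right), points with 95% confidence intervals, filled where the adjusted p was under 0.05. There are 10 filled points on the left, of which Adamts20 and Mmp14 lie below 0, and Mmp23, Mmp17 and Adamts8 are filled on the right.

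On mouse chromosome 9, 10 of the 22 metalloproteinase genes lie in a row, in the order Mmp13, Mmp12, Mmp1b, Mmp3, Mmp1a, Mmp10, Mmp8, Mmp27, Mmp20 and Mmp7. Mmp27 was the member of this cluster that rose with the diet, and Mmp13 fell in the average over segments. The other 8 were called in none of the 6 comparisons. Mmp1a and Mmp1b, close copies of each other whose probes may share signal, had means of 2.80 and 2.90, at the 2.9th and 3.4th percentile of the means of all genes. Mmp3, stromelysin-1, which activates other metalloproteinases (probe set 17514515), read 7.27, 7.98 and 7.74 in thoracic HPD arrays and 7.03, 6.71, 7.82 and 7.03 in thoracic SCD arrays. It read 6.47, 6.37, 7.58 and 6.82 in abdominal HPD arrays and 7.44, 7.39, 6.90 and 6.86 in abdominal SCD arrays. These groups overlapped in both segments, with differences of 0.52 ± 0.293 in the thoracic and -0.34 ± 0.271 in the abdominal aorta (limma adjusted p = 0.483 and 0.543).

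The promoter letters of the cluster genes differed from those of the other members. RefSeq's table (GRCm38.p6, from the strain C57BL/6J and not the DBA/2NCrl strain of these mice) held upstream sequence for 34 of the 49 genes, in 37 windows, and the 250 bases before each start were searched on both strands. The letters TGANTCA, a site of AP-1 factors, were present in 8 of the 10 cluster genes and in none of the 24 other genes, against 6.75% of all 32851 windows. The letters TATAAA were present in 7 of the 10 and in 3 of the 24 (12.4% of all windows), and GGGCGG, a GC box, in none of the 10 and in 18 of the 24 (32.7% of all windows). CCAAT was found in 2 of the 10 and 5 of the 24 (33.8% of all windows), and CACGTG in 1 of each (6.02%). A gene with 2 windows was counted where either held the letters. Counted by window, as for all windows, TGANTCA was in 21.6%, TATAAA in 27.0%, GGGCGG in 48.6%, CCAAT in 21.6% and CACGTG in 5.41% of the 37. Matches of different motifs shared letters in the windows of Mmp7 and Mmp14. The cluster genes without the AP-1 letters were Mmp8 and Mmp27. Windows are shown for Mmp27, which rose with the diet, for Mmp13, which fell in the average, for 2 further cluster genes, Mmp3 with the AP-1 letters and Mmp8 without them, and for Timp4 and Adamts12, outside the cluster, which were called in opposite directions. Capitals mark the motifs searched. In Mmp13 the AP-1 letters TGACTCA span bases 35 to 29 and TATAAA bases 16 to 11 before the start, and in Mmp3 the letters TGAGTCA span bases 46 to 40 and TATAAA bases 7 to 2.
Mmp27 (chr9:7571146-7571395, + strand): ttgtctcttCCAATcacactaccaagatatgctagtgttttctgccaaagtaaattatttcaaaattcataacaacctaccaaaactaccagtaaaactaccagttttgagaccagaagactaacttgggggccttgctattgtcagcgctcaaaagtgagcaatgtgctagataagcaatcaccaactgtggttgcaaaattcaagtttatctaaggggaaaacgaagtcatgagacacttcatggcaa
Mmp13 (chr9:7272264-7272513, + strand): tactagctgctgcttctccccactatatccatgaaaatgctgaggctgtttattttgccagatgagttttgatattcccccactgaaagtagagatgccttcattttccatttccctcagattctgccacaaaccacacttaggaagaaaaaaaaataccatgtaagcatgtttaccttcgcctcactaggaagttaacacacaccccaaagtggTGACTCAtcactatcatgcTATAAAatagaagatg
Mmp3 (chr9:7445572-7445821, + strand): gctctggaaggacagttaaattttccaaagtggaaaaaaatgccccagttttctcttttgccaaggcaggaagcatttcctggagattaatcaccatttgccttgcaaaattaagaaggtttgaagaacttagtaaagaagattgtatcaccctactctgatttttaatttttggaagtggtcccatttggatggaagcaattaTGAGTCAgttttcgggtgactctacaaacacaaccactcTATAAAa
Mmp8 (chr9:7558179-7558428, + strand): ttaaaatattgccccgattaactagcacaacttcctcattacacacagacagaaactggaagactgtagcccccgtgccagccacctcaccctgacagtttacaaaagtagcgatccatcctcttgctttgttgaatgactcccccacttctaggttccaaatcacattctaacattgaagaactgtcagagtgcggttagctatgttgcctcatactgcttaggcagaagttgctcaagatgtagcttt
Timp4 (chr6:115252206-115252455, - strand): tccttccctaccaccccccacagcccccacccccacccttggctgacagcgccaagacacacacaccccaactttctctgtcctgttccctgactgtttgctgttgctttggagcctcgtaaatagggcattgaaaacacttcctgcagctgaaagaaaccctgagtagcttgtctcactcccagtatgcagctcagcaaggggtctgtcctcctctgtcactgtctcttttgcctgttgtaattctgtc
Adamts12 (chr15:11064523-11064772, + strand): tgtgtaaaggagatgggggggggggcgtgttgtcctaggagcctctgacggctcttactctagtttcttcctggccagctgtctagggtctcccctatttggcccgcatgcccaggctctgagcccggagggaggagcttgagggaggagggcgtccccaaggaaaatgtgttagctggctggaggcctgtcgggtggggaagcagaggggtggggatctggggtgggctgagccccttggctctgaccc
None of the 5 motifs was found in the windows of Mmp8, Timp4 and Adamts12, and Mmp27 held the letters CCAAT alone, at bases 241 to 237. The matches are letters in a window and say nothing of which factors bind there.

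Mmp8, the collagenase stored in neutrophil granules (probe set 17514553), had the largest SD of any member in a group, 1.54 in abdominal SCD and 1.02 in abdominal HPD arrays, and was highest in the 3 arrays with the highest neutrophil markers. It read 5.71, 6.74 and 6.30 in thoracic HPD arrays against 5.21, 5.38, 5.51 and 5.78 in thoracic SCD arrays, and 7.64, 7.71, 5.61 and 6.40 in abdominal HPD arrays against 5.25, 8.55, 5.39 and 5.87 in abdominal SCD arrays. The highest value of all, 8.55, was in a chow array. The mean of 9 neutrophil markers was 6.44 and 6.44 in abdominal HPD arrays 1 and 2 and 7.32 in abdominal SCD array 2, and between 4.84 and 5.62 in the other 12 arrays. S100a8, a calcium-binding protein abundant in neutrophils, read 7.57, 7.70 and 9.01 in those 3 arrays and at most 5.75 elsewhere. The markers Ly6g and Ltf did not set abdominal HPD arrays 1 and 2 apart. Ly6g read 5.31 and 5.03 there and 5.32 in thoracic HPD array 2, and Ltf 6.14 and 5.97 against 6.20 in thoracic SCD array 3. The diet difference of Mmp8 was 0.58 ± 0.61 in the abdominal and 0.78 ± 0.658 in the thoracic segment, neither called (limma adjusted p = 0.664 and 0.699). Mmp9, another enzyme of neutrophil granules, lay between 5.46 and 6.05 in all 15 arrays and read 5.72, 5.68 and 5.96 in those 3. The part of neutrophil RNA in the other results was not tested. Without those 3 arrays, 2 of the 49 genes were called in the abdominal diet comparison, beside 646 of all genes. The 2 were Adamts12 (-0.60) and Mmp27 (0.86).

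**Figure D5:**
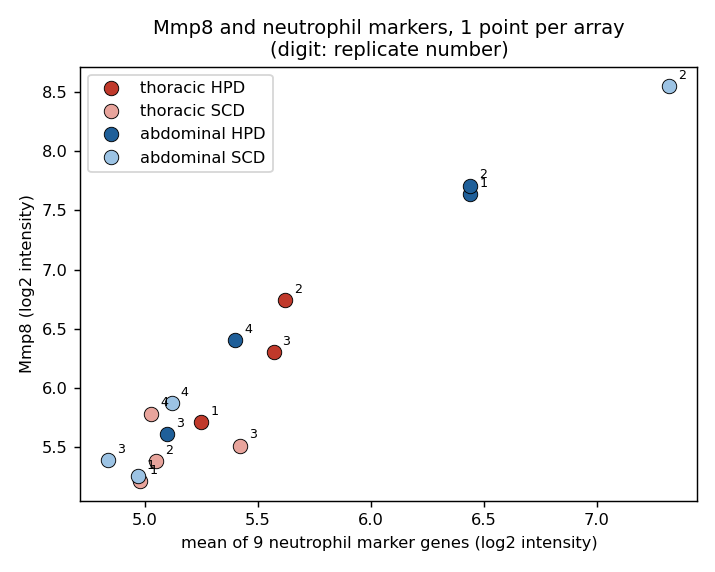
Mmp8 (y axis) against the mean of 9 neutrophil marker genes (x axis), both in log2 intensity, 1 point per array coloured by group and numbered by replicate. Abdominal SCD array 2 (7.32 and 8.55) and abdominal HPD arrays 1 and 2 (6.44 on the x axis) lie apart from the other 12 arrays.

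The share of all genes called in no comparison was not counted. Of the 49 genes, 31 had no call in any of the 6 comparisons. They include the gelatinase Mmp2 (probe set 17503825), which averaged 8.87 ± 0.31 in abdominal HPD and 9.14 ± 0.11 in abdominal SCD arrays (n = 4 each), with a 95% confidence interval of the difference from -0.57 to 0.034. Abdominal HPD array 3, at 9.33, was the highest of its group by a wide gap, the others lying between 8.67 and 8.76. In the thoracic segment Mmp2 averaged 9.22 ± 0.26 in HPD (n = 3) and 9.19 ± 0.17 in SCD arrays (n = 4). Adamts1 and Adamts4, which also cut proteoglycans, gave abdominal diet differences of -0.36 and -0.15 and were not called (limma adjusted p = 0.283 and 0.506). The procollagen-processing enzymes Adamts3 and Adamts14 were not called in any comparison, and neither was Adamts7, a relative of Adamts12, whose abdominal interval ran from -0.13 to 0.29.

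Other genes of matrix turnover, from a list of 60 of which 56 were measured, moved with the diet as well. The genes named for each comparison are those with the smallest p, which are not always those with the largest difference. In the abdominal segment 10 fell and 2 rose, beside 7.01% of all genes called. The smallest p belonged to the collagen genes Col3a1 (-1.39 ± 0.112), Col1a2 (-1.04 ± 0.12) and Col1a1 (-0.86 ± 0.111), substrates of the metalloproteinases, and to Htra1, a serine protease that cuts matrix proteins (-0.65 ± 0.0918). In the thoracic segment 4 fell and 2 rose, beside 2.47% of all genes called. Here they were the sheddase Adam12 (-0.81 ± 0.101, limma adjusted p = 0.00091), Htra1 (-0.60 ± 0.0992), Col3a1 (-0.60 ± 0.121) and Thbs1, thrombospondin-1, which rose (0.89 ± 0.19). In the average over segments 13 fell and 4 rose, beside 10.7% of all genes called. Between segments on high phosphate 17 were higher and 3 lower in thoracic aorta, beside 13.8% of all genes called. The smallest p belonged to Vcan, the versican cut by several ADAMTS proteases (1.59 ± 0.174), Col1a2 (1.10 ± 0.13), Col3a1 (0.77 ± 0.121) and Adam33 (0.76 ± 0.125). On chow 4 were higher and 2 lower, beside 4.78% of all genes called. There they were Tll1, a procollagen C-proteinase that was lower in thoracic aorta (-0.47 ± 0.099), Adam33 (0.51 ± 0.116), Adam10 (-0.34 ± 0.0873) and Vcan (0.61 ± 0.161). The genes named here passed limma's adjusted p under 0.05 over all genes.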

How the data were processed

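Total RNA of aortic segments was amplified by the NuGEN Applause WT-Amp Plus ST kit and given a biotin label, per the labels. The deposited values were read as log2 intensities per probe set, since they run from 1.38 to 13.33 and no source gives the base. RMA and Partek appear in the submitters' processing notes without versions. Array medians lay between 5.78 and 5.84. Scan dates were not used here, so batches were not looked for.

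Of 41345 probe sets, 23521 carry exactly 1 gene symbol in the platform annotation, 1814 carry several and 16010 are unnamed. The brightest probe set over all arrays stood for each of 22180 genes. All 49 members matched a RefSeq symbol, and 4 of them had 2 probe sets. In limma 3.58.1 (R 4.3.3), group means were estimated by lmFit for all genes, with variances moderated by eBayes along a trend and 11 residual degrees of freedom. The contrasts were HPD minus SCD in either segment, the mean and the difference of those changes, and thoracic minus abdominal on either diet, each with two-sided p-values adjusted by Benjamini-Hochberg over all genes. The code was tested on simulated data. Every member could be named, and of the other matrix genes up to 4 called ones a contrast. Members, lists and tests were chosen with earlier results of these data known. Where mice were shared or pooled, p-values measure only the spread between these arrays. Alternatives covered the variance prior, dim genes, the groups fitted, quantile normalization, centring, array weights, a replicate block, probe set averaging, an adjusted p under 0.1, and arrays left out. Plots were drawn with matplotlib 3.10.9.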

Additional observations from a re-analysis of the deposited data

Results flagged for a closer look

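Chance alone sets about 1 in 20 such groups apart, and 7 of 147 groups of 4 arrays (49 genes in 3 groups) held an array lying apart from the rest. Of these, 3 were high. Mmp2 was 9.33 in abdominal HPD array 3, against 8.76 at the next array, Mmp19 was 7.23 in abdominal SCD array 1, against 6.93, and Adamts14 was 6.35 in thoracic SCD array 3, against 6.06. The other 4 were low. Adamts15 was 5.09 in abdominal HPD array 1, against 5.39 at the next array, Mmp9 was 5.46 in abdominal HPD array 4, against 5.68, Adamts7 was 5.58 in abdominal SCD array 2, against 5.80, and Adamtsl4 was 6.39 in abdominal SCD array 3, against 6.65. Of these genes Mmp19 is the one with a diet call, and its abdominal call held without that array. The diet change of none of the 49 genes differed between segments by limma's test (adjusted p 0.858 or more).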

How the results depend on the processing

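Of 35 called changes of single genes, none reversed under any alternative, and 14 held under all planned ones. With 1 array left out, the count of called genes ran from 5 to 10 in the abdominal diet comparison, 0 to 1 in the thoracic one, 9 to 13 for the average, 0 to 0 for the difference, 1 to 4 between segments on chow and 3 to 10 on high phosphate. The thoracic count was 0 without HPD array 2 or 3 or SCD array 1, 2 or 4. Without HPD array 1 or SCD array 3 it was 1, a gene that rose and was not Timp4. Timp4 had a limma adjusted p of 0.0825 and 0.0778 in these 2 fits. The abdominal count was 4 with only the groups compared in the fit. The thoracic count was 2 with array weights, 2 at an adjusted p under 0.1 and 0 with the replicate block (13 with an unadjusted p under 0.05), and the chow segment count was 5 at an adjusted p under 0.1. Without the arrays with high lymphocyte markers a single abdominal HPD array is left, so only differences are given above for that fit. Without those with high neutrophil markers the counts were 2 for the abdominal diet change, 4 for the average and 1 between segments on high phosphate. Over all genes 646, 1580 and 993 were called in these comparisons. Fits that leave out arrays have fewer samples, and the cause of the other moves was not tested. The labels do not say whether replicate numbers pair the arrays. Same-numbered arrays of different groups had a median correlation of deviations of 0.046 (-0.25 to 0.40). For differently numbered arrays the median was -0.014 (-0.52 to 0.42). A correlation over 0.1 was seen in 5 of 21 same-numbered and 7 of 63 other pairs, which does not settle whether mice were shared. The replicate block ended 4 of the 35 calls, including Timp4 in the thoracic segment (0.79, adjusted p = 0.0662). Signal over background is unknown, which limits what can be said of the dim genes.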
